A study of Nothobranchius furzeri with 19 samples.

Results

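Trunks of turquoise killifish (*Nothobranchius furzeri*) at the hatching stage, 0 days post hatching (dph), were compared with whole embryos at 10 days post fertilization (dpf). The study describes 0 dph as the stage of readiness to hatch, which can last for several weeks. The time since fertilization of the 0 dph samples is not given in their labels. All animals belonged to the strain GRZ, and no allele or treatment is named for any of them. The comparison used the 5 libraries of 0 dph trunks (2 female and 3 male) and the 6 libraries of 10 dpf whole embryos (3 female and 3 male), which are 11 of the 19 libraries of the series. A library was assigned by the age, tissue and sex given for its sample. The 6 libraries of 3 dph trunks (3 female and 3 male) were used only where a later age is given beside the comparison, and the 2 adult gonad libraries were not used. Age and tissue change together here, because the embryos include the head and the hatchling samples are trunks. The part of any difference that comes from age and the part that comes from the tissue sampled cannot be told apart.

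Annual killifish spend a long embryonic life in the egg. At the stage of organogenesis the eye, brain and body axis are being built, and many cells divide. At hatching the larva has a working gut, liver and kidney, contracting muscle and a protective skin, and it starts to live on food instead of yolk. Photoreceptors, lens fibres and forebrain neurons lie in the head, whereas gut, liver and kidney lie in the trunk.

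The libraries held 15563687 to 20218857 counts over 26740 genes, and 21390 genes passed the filter on low counts and were tested. Levels are given as CPM (the count of a gene scaled to a common library size) after TMM scaling, a method that sets the bulk of genes to no change on average. Log2 fold changes are 0 dph over 10 dpf, and a gene was called at an adjusted p under 0.05 in edgeR's quasi-likelihood test with sex as a term. Of the genes tested, 7950 were higher (37.2%) and 7727 were lower (36.1%) in 0 dph trunks, together 73.3%. A test for changes beyond 2-fold called 4615 higher (21.6%) and 4008 lower (18.7%), together 40.3%. The 5 trunk libraries lay wholly above the 6 embryo libraries for 5826 genes (27.2%) and wholly below them for 5849 (27.3%), together 54.6%. Nothing says that the replicates are separate animals, so the p-values measure the spread between these samples.

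The direction of small changes depended on the scaling. The 10 most abundant genes took 12.1% ± 0.930 of the counts in 0 dph trunks and 4.44% ± 0.564 in 10 dpf embryos (SD, n = 5 and 6; exact two-sided permutation p = 0.00433, adjusted over 5 library measures 0.00541). In trunks 9861 ± 590 genes reached 10 CPM by library totals, without TMM factors, against 12021 ± 549 genes in embryos (adjusted exact permutation p = 0.00541). Numbers of genes at a CPM limit per library are on this scale throughout. Scaling by library totals alone moved the median log2 fold change of all genes by -0.80 and gave 4650 higher (21.7%) and 12005 lower genes (56.1%), of which 253 carried the opposite call. No gene called beyond 2-fold took an opposite call under this scaling (0 genes). A shift of -0.80 is smaller than that limit, so such a call could hardly turn, and the 0 shows nothing more. Changes of a group are therefore given beside its median under library totals wherever that value changes sign. Where a list is also given for 1 sex alone, the difference between the sexes was not tested over the list. Over all genes, the fit of females alone called 7811 higher and 7729 lower. The fit of males alone called only 5696 and 5677, so lower counts in males are partly general. A gene that missed the filter in a fit of 1 sex does not count as called there.

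**Figure D1:**
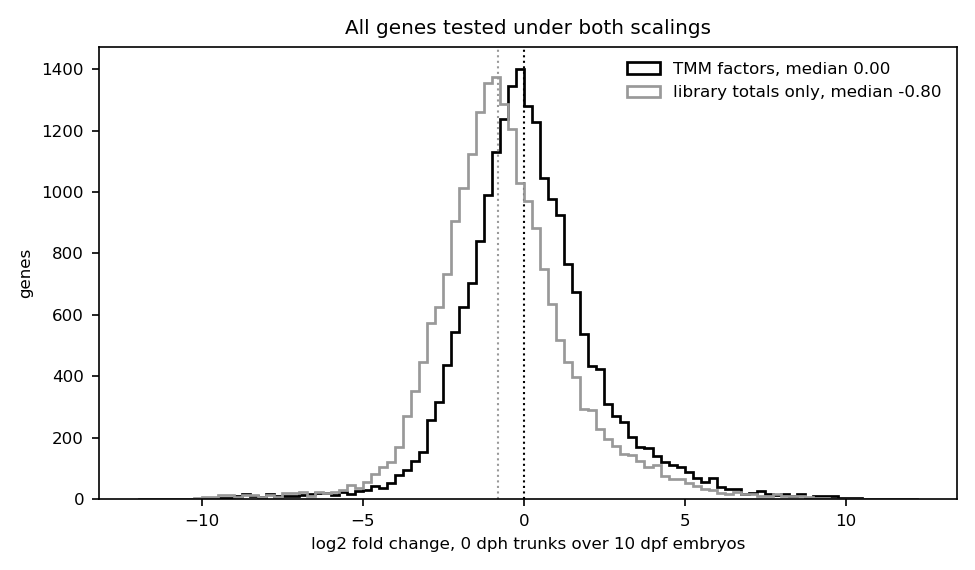
Number of genes (vertical axis) by log2 fold change of 0 dph trunks over 10 dpf embryos (horizontal axis) for the 21390 genes tested. The black outline uses TMM factors, and the grey outline, scaled by library totals only, is shifted by -0.80.

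Libraries stood apart within both stages. The first principal component of the 500 most variable genes held 93.4% of their variance and separated the stages, with trunks at 74.3 to 86.9 and embryos at -72.4 to -48.2. The male 10 dpf embryo replicate 1 was the embryo at -48.2, and the others lay at -72.4 to -69.6. This library also had the highest summed level of the liver genes among the embryos (290 CPM, against 78.4 to 115 CPM in the other 5), and of the skin, muscle and cartilage genes. The male 10 dpf embryo replicate 3 had more Hoxb transcripts (122 CPM summed, against 46.5 to 62.5 CPM). It had fewer genes at 10 CPM or more by library totals (10941, against 11995 to 12451). Leaving both libraries out, a setting chosen after seeing the data, gave 8065 higher and 8200 lower genes. Among the trunks, the female replicate 1 lay apart on the second component (35.1, against -14.0 to 1.52), and the female replicate 2 had 2408 CPM of summed red blood cell genes, against 230 to 382 CPM.

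Gene symbols were known for 2671 of the 26740 identifiers (9.99%), and 36 gene lists with 547 identifiers were read from them. Of the 2671, 773 have a symbol only because they stand in a list ordered by a sex test on the 10 dpf libraries. These 773 are a selection on these samples, with 175 higher (22.6%) and 386 lower genes (49.9%). Many symbols occur on several identifiers, and the counts of near-identical copies are uncertain.

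Genes of the head are given first. Lists and members were chosen with earlier results of these data known, so their direction is no check of the tissue labels. Of the 32 photoreceptor genes tested, 28 were lower in 0 dph trunks and 0 were higher, with a median log2 fold change of -3.90 when genes at the counting floor enter at their bound, against 0.00 over all genes. The summed level of the list was 37.6 to 58.4 CPM in trunks and 269 to 868 CPM in embryos. All 5 lens genes and all 4 forebrain transcription factors tested were lower, with medians of -6.08 and -4.78. In these bulk samples, fewer cells of a type and less RNA per cell cannot be told apart.

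The interphotoreceptor matrix gene impg1a (Nfu_g_1_000090) had 0, 0.0645, 0.0754, 0 and 0 CPM in the 5 trunks, with at most 1 count, against 20, 23.2 and 32 CPM as the lowest, median and highest of the embryos. Its level was at least 109.9-fold lower in trunks (3 counts per library taken as the floor; edgeR, adjusted p = 3.56e-09). Such bounds hold for the mean of a stage and need not hold for each library. Rhodopsin, rho (Nfu_g_1_001501), the rod visual pigment, had at most 2 counts in any trunk, against 0.0572, 23.5 and 123 CPM in the embryos. The embryo at 0.0572 CPM was the male replicate 3, so rho overlapped between the stages. The cone opsin gene opn1mw2 had 0 counts in every trunk and 0.458 to 10.3 CPM in the embryos.

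Lens crystallins showed the same order. The gene crybb1l3 (Nfu_g_1_000306), a beta-crystallin of the transparent lens fibres, had 0.273, 0.193, 0.603, 0.318 and 0.404 CPM in trunks, against 114, 163 and 228 CPM in embryos, a log2 fold change of -8.85 ± 0.30 (SE; edgeR, adjusted p = 6.68e-10). The stages were far from overlapping. The beta-crystallin gene cryba1a and the lens aquaporin gene mipb were at the counting floor in all trunks and at least 67.8-fold and at least 122-fold lower there. The forebrain genes dlx6a and barhl2, homeobox factors of interneurons and of retina and brain, had log2 fold changes of -5.07 and -4.97. The photoreceptor genes that missed the test were cngb1a (-0.71), grk7b (0.21), prom1b (0.42) and AIPL1 (0.79). The visual pigment genes rho and opn1mw2 and the crystallin genes crybb1l3 and cryba1a were thus near 0 in the trunk libraries, but the photoreceptor list as a whole was not.

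**Figure D2:**
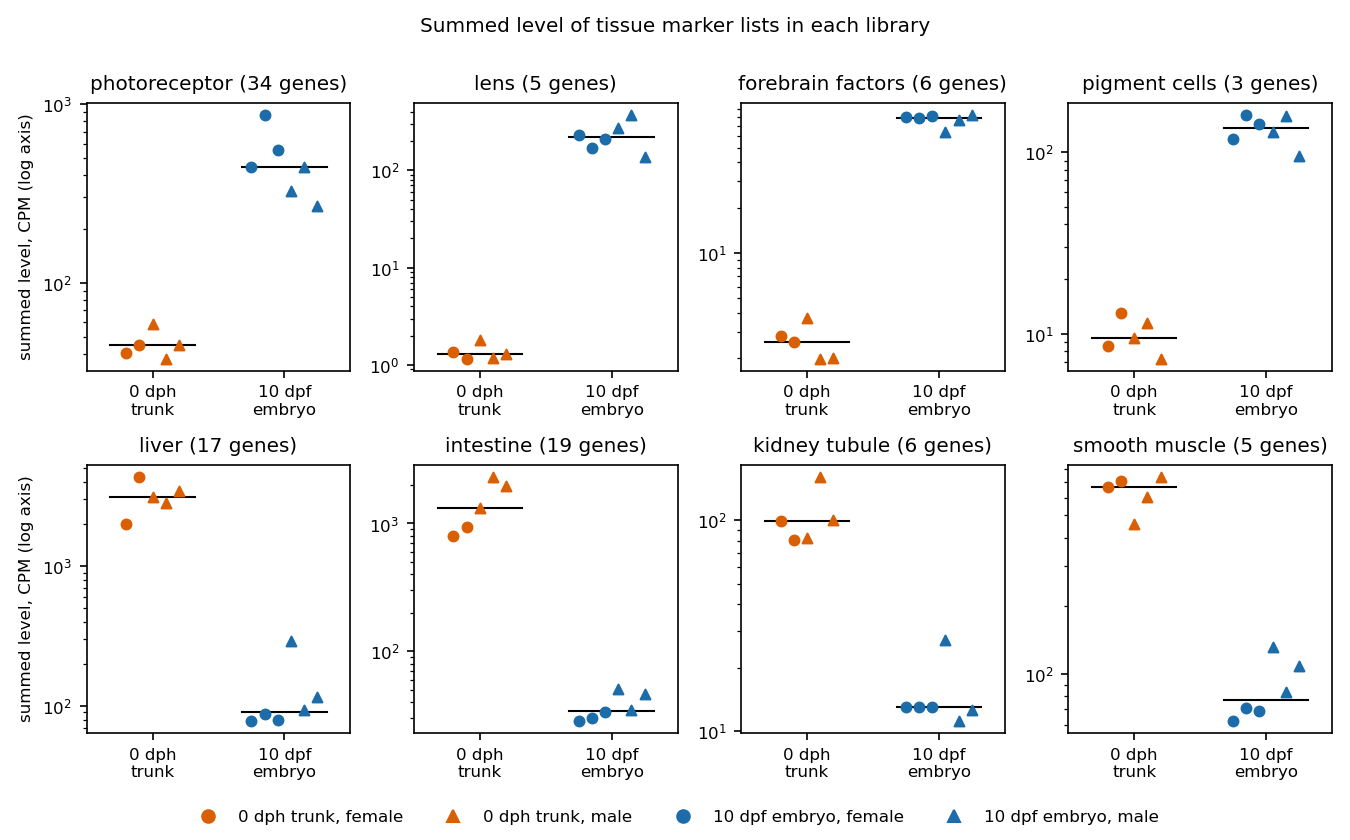
Summed level of 8 marker lists in each library (CPM, log axis), with 0 dph trunks on the left and 10 dpf embryos on the right of each panel, circles for females, triangles for males and a line at the median. Photoreceptor sums were 37.6 to 58.4 CPM in trunks and 269 to 868 CPM in embryos, whereas liver sums were 2013 to 4331 CPM in trunks and 78.4 to 290 CPM in embryos.

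Neuronal genes were also lower. Of 41 genes of synapses and transmitters, 36 were lower and 0 were higher, with a median log2 fold change of -1.72. Members named only through the list ordered by a sex test were not counted apart. All genes of that kind were 49.9% lower and 22.6% higher, with a median of -0.71, so all genes tested may be the wrong background here. The trunk libraries still held 321 to 616 CPM of summed neuronal genes, against 801 to 1697 CPM in embryos. The AMPA receptor subunit gene gria2b (Nfu_g_1_004749), which carries fast excitatory transmission, had 32.1, 36.1, 53.0, 21.1 and 30.5 CPM in trunks, against 70.7, 116 and 169 CPM in embryos (log2 fold change -1.72 ± 0.25, edgeR, adjusted p = 5.50e-05). The stages did not overlap, but gria2b was present in every trunk.

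The glutamate decarboxylase gene gad1b (Nfu_g_1_020340), which makes the inhibitory transmitter GABA, had 0.955, 0.451, 1.73, 0.398 and 0.808 CPM in trunks, against 10.8, 14.9 and 19.6 CPM in embryos (-4.04 ± 0.37, adjusted p = 1.17e-06). The vesicular glutamate transporter gene slc17a7 had a log2 fold change of -3.81 and the other vesicular glutamate transporter gene of the list, slc17a6b, one of -1.55. The synaptotagmin gene syt5b had -6.10. 5 members missed the test, among them snap25a of the vesicle fusion complex (-0.18) and the 2 copies of the glycine receptor gene glra1 (-0.53 and 0.03).

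All 3 pigment cell genes were lower. The melanosome matrix gene pmelb (Nfu_g_1_001975) had 0.409, 0.387, 0.603, 0.318 and 0.485 CPM in trunks, against 77.3, 101 and 125 CPM in embryos, a log2 fold change of -7.81 ± 0.24 (adjusted p = 4.53e-10). Tyrosinase, tyr, the first enzyme of melanin synthesis, had 5.74 to 10.9 CPM in trunks and 16.7 to 34.5 CPM in embryos (-1.86 ± 0.24). Pigment is made both in the skin of the trunk and in the pigmented layer of the eye, and pmelb differed far more than tyr.

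Genes that pattern the embryo split by family. All 7 Iroquois homeobox genes tested were lower in 0 dph trunks, with a median log2 fold change of -3.11. These factors act early in neural, heart and retinal patterning. The gene irx6a (Nfu_g_1_000037) had 0.819, 1.74, 2.19, 0.955 and 2.34 CPM in trunks, against 29.0, 41.5 and 65.4 CPM in embryos (-4.81 ± 0.32, adjusted p = 1.10e-07). The smallest change of the family was that of irx3a, with 32.2 to 53.8 CPM in trunks and 62.1 to 73.3 CPM in embryos (-0.58 ± 0.14, adjusted p = 0.00219). The stages did not overlap for any of the 7.

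Of the 4 Hoxb genes, which set position along the body axis, 3 were lower. The gene hoxb5b (Nfu_g_1_000921) had 24.8, 5.74, 9.65, 7.48 and 3.15 CPM in trunks, against 30.3, 38.1 and 86.1 CPM in embryos (-2.19 ± 0.48, adjusted p = 0.00130). The highest embryo was the male replicate 3. Without the male embryos 1 and 3, 2 of the 4 were called lower. Females alone gave 2 lower (median -0.90) and males alone 4 lower (-1.97). The fit of both sexes called 0 lower in females and 4 in males.

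The other 28 developmental transcription factors showed no common direction, with 7 higher, 8 lower and a median of 0.15 (-0.64 under library totals). Lower genes included lhx1a (-3.40) of neural and kidney precursors, sox4b (-3.34) of neural progenitors and shox2 (-3.16) of limb and heart. The gene sox4b (Nfu_g_1_001775) had 17, 9.80, 12.7, 9.79 and 9.05 CPM in trunks, against 51.8, 129 and 152 CPM in embryos (SE 0.28, adjusted p = 5.67e-07). The gut mesoderm gene foxf1 (Nfu_g_1_003991) was higher, with 25.6, 27.3, 20.1, 20.9 and 29.9 CPM in trunks, against 3.02, 4.31 and 14.7 CPM in embryos (2.08 ± 0.35, adjusted p = 0.000190). The tendon gene scxa was higher too (1.81), but its highest embryo (6.15 CPM) overlapped the trunks. The balance of this list turned when libraries were left out: it was 11 higher and 7 lower without the male embryos 1 and 3. Females alone gave 15 higher and 6 lower (median 0.69), and males alone 2 higher and 10 lower (-0.41). The fit of both sexes gave 11 higher and 6 lower in females, and 2 and 10 in males.

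Of 25 developmental signalling genes, 4 were higher and 11 lower, with a median of -0.33 (0.06 in females alone, -0.52 in males alone). The shares over all genes were 37.2% higher and 36.1% lower. The axon guidance receptor gene robo1 (Nfu_g_1_000546) had 37.1, 44.0, 32.6, 22.3 and 30.5 CPM in trunks, against 121, 144 and 230 CPM in embryos (-2.22 ± 0.21, adjusted p = 1.67e-06). Both copies of robo2 were lower as well (-2.27 and -1.92), as was the Wnt receptor gene fzd3a (-3.97). Genes of the BMP pathway were among the higher members. The receptor gene bmpr2b (Nfu_g_1_001410) had 10.2, 5.74, 2.56, 2.55 and 3.72 CPM in trunks, against 0.121, 0.305 and 0.516 CPM in embryos (4.10 ± 0.27, adjusted p = 1.10e-07), and the ligand gene bmp2b had a log2 fold change of 3.03. The target gene id3 had 1.04, bmp7b had 0.86 and id1 had -0.33, of which only id3 was called.

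**Figure D3:**
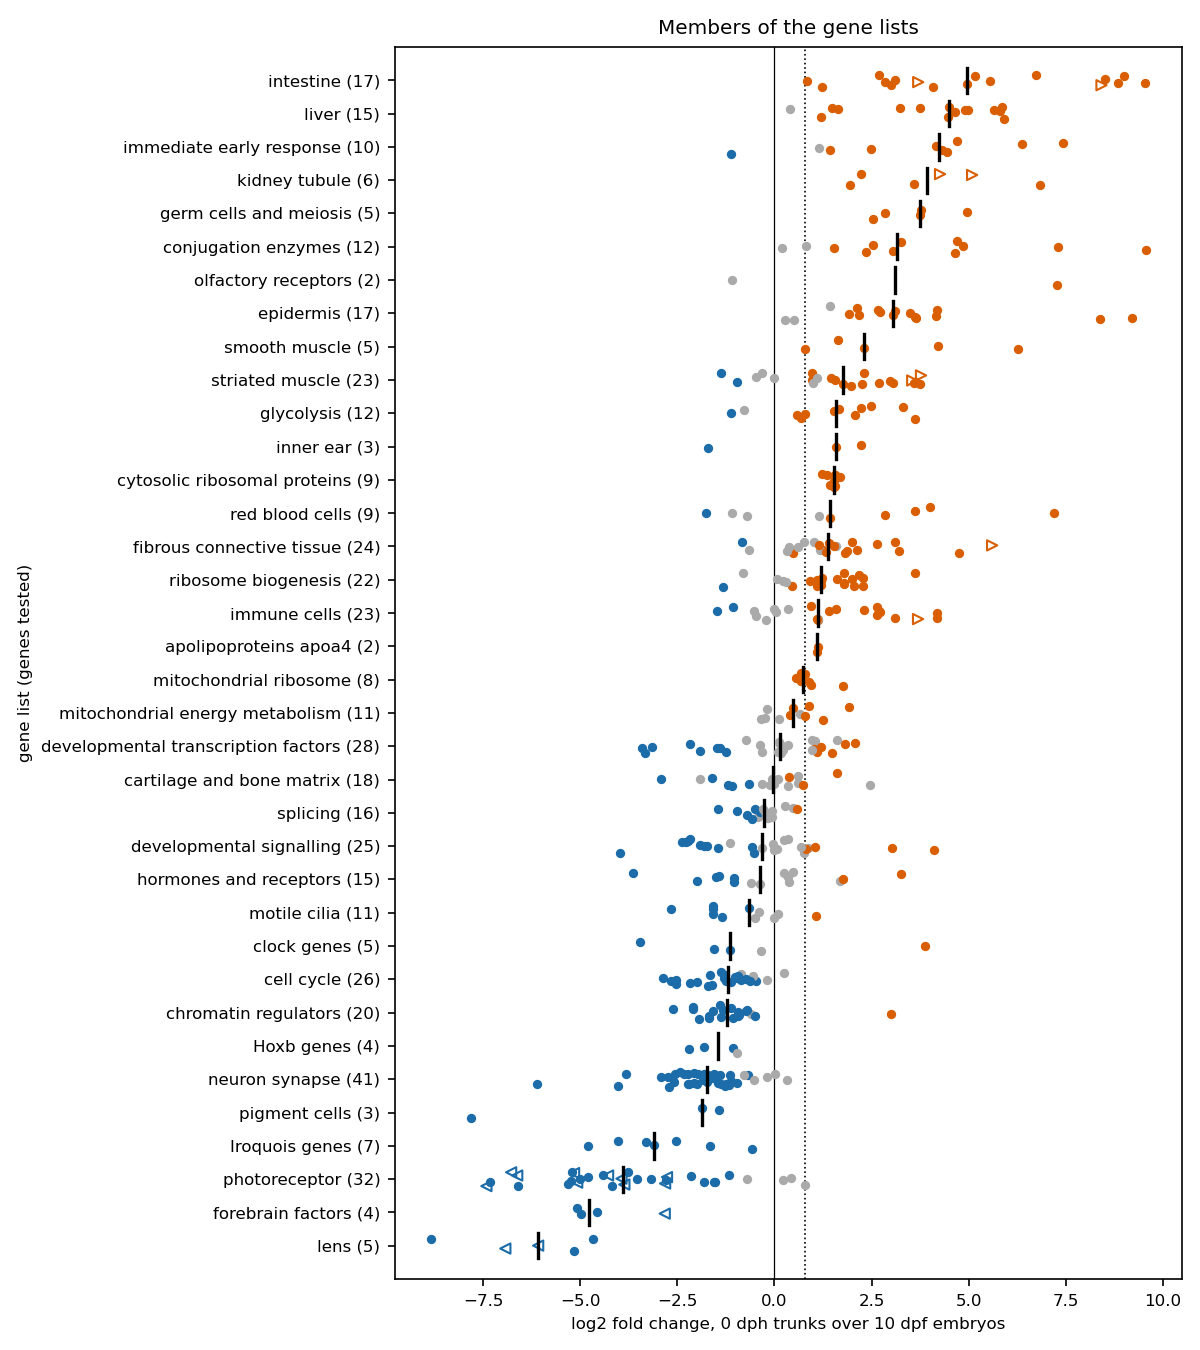
Log2 fold change of every tested member of the 36 gene lists (horizontal axis), orange where called higher at 0 dph, blue where called lower and grey where not called, with the number tested in brackets and a bar at the median. Open triangles are lower bounds for genes at the counting floor in one stage, and the dotted line marks no change under library totals, which shift the median by -0.80.

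Genes of cell division were lower in 0 dph trunks. Of 26 cell cycle genes, 22 were lower and 0 were higher, with a median of -1.19. Summed levels were 330 to 619 CPM in trunks and 1001 to 1691 CPM in embryos. The condensin gene smc4 (Nfu_g_1_000255), which compacts mitotic chromosomes, had 51.0 and 80.9 CPM in female trunks and 37.5, 23.2 and 25.2 CPM in male trunks, against 188, 215 and 435 CPM in embryos (-2.55 ± 0.35, adjusted p = 4.00e-05). The ribonucleotide reductase gene rrm1 (Nfu_g_1_000449), which supplies DNA precursors, had 40.7 and 32.3 CPM in female and 9.05, 15.6 and 14.6 CPM in male trunks, against 71.9, 81.4 and 93.4 CPM in embryos (-1.98 ± 0.28). In both genes each female trunk lay above every male trunk, and all trunks lay below all embryos. The cyclin gene ccnd1 of G1 phase changed little (-0.47), and the repair gene brca2 was not called (0.25).

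Within each sex, 14 of the 26 genes were lower in females and 20 in males. Over all genes, 6162 of 21728 were called lower in females and 6868 in males. Called in either direction were 61.4% of all genes in females and 62.5% in males. The median of the list was -0.74 in females and -1.70 in males, against 0.02 and -0.03 over all genes, and 23 of the 26 genes had the higher log2 fold change in females, against 54.3% of all genes. The difference itself was called for 3 of the 26 genes and was not tested for the list. The male 10 dpf embryo replicate 3 had the highest summed level of the list among the embryos (1691 CPM, against 1001 to 1223 CPM in the other 5). The spindle checkpoint kinase gene BUB1 (Nfu_g_1_000124) had 9.48 and 16.8 CPM in female and 2.64, 1.99 and 2.91 CPM in male trunks, against 31.8, 38.5 and 55.2 CPM in embryos. Its log2 fold change was -1.55 in females and -4.13 in males, a difference of 2.58 ± 0.41 (edgeR, interaction adjusted p = 0.0260). The differences were 2.96 ± 0.53 for the kinetochore motor gene CENPE (Nfu_g_1_000450, adjusted p = 0.0402) and 2.26 ± 0.32 for ect2, which drives cytokinesis (adjusted p = 0.0175). Over the genome the interaction was called for 89 of 21728 genes (0.41%), 83 of them with the larger value in females.

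These calls were not firm. Leaving out 1 library at a time left between 0 genes (without the female 10 dpf embryo replicate 3, with 1701 at an unadjusted p under 0.05) and 240 genes (without the female 0 dph trunk replicate 2), while DESeq2 called 415. The count was 17 without the female 10 dpf embryo replicate 1, 4 without the female embryo replicate 2 and 40 without the male embryo replicate 2. It was 28 and 15 without the male 0 dph trunk replicates 1 and 2, and between 62 and 104 without any of the other 4 libraries. BUB1, CENPE and ect2 kept their call in 5, 2 and 6 of 11 such fits, and without the male embryos 1 and 3 their adjusted p was 0.107, 0.171 and 0.0830.

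All 5 germ cell genes tested were higher in 0 dph trunks, with a median of 3.74. It was 4.75 in females alone with 5 called, and 2.19 in males alone with 3 called. The gene rad21l1 was not tested in males alone, and the fit of both sexes called 4 higher in males. The Tudor domain gene tdrd6 (Nfu_g_1_000089) of the germ granule had 53.7 and 18.6 CPM in female and 7.16, 5.57 and 12.8 CPM in male trunks, against 0.227, 0.396 and 1.34 CPM in embryos (4.96 ± 0.64, adjusted p = 2.07e-05). The meiotic cohesin gene rec8 (Nfu_g_1_001081) had 15.1 and 20.8 CPM in female trunks and 0.905, 0.477 and 0.566 CPM in male trunks, against 0.500, 0.650 and 0.941 CPM in embryos. Its log2 fold change was 4.57 in females and 0.08 in males, a difference of 4.48 ± 0.52 (interaction adjusted p = 0.0124, called in 10 of 11 fits that left out a library, and 0.0566 without the male embryos 1 and 3). The other meiotic cohesin gene, rad21l1, had 6.96 and 7.48 CPM in female trunks and 0.557 to 1.29 CPM in male trunks. In both genes the female trunks were the highest libraries. These 4 genes with a called difference between the sexes were chosen after their values were seen.

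**Figure D4:**
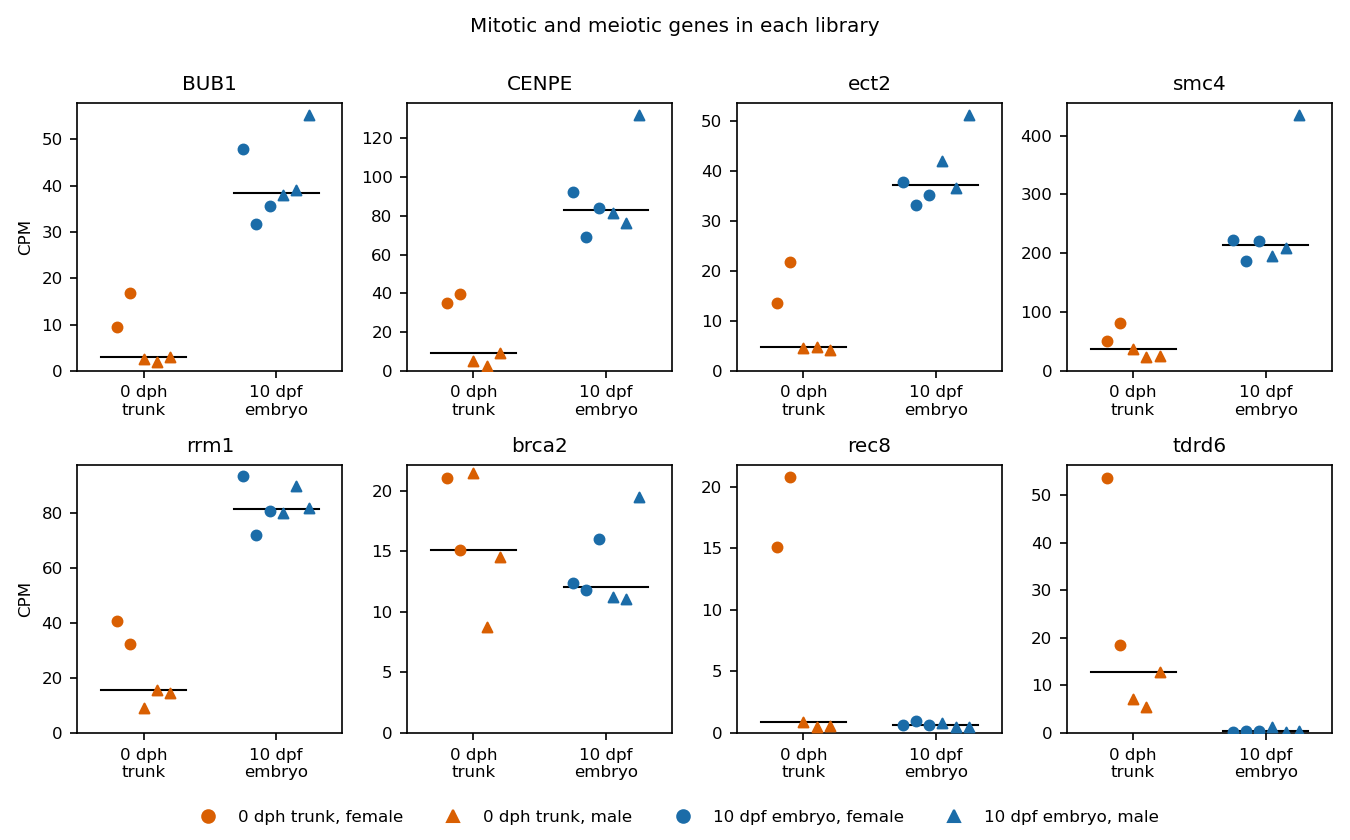
Levels (CPM) of 8 mitotic and meiotic genes in each library, with 0 dph trunks on the left and 10 dpf embryos on the right, circles for females, triangles for males and a line at the median. BUB1 lay at 1.99 to 16.8 CPM in trunks and 31.8 to 55.2 CPM in embryos, and rec8 reached 15.1 and 20.8 CPM in the female trunks only.

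Of 20 genes of chromatin regulation, 18 were lower and 1 was higher, with a median of -1.22. The histone H3 lysine methyltransferase gene suv39h1b (Nfu_g_1_001883) had 8.60, 17, 2.86, 3.18 and 4.61 CPM in trunks, against 32.3, 38.2 and 55.5 CPM in embryos (-2.60 ± 0.40, adjusted p = 7.97e-05). Both copies of the DNA methyltransferase gene dnmt3b were lower (-1.69 and -1.57). The exception was hmga1b (Nfu_g_1_002244), an architectural chromatin protein, with 838, 1120, 202, 563 and 176 CPM in trunks, against 25.9, 29.6 and 342 CPM in embryos (3.00 ± 0.91, adjusted p = 0.0101). The embryo at 342 CPM was the male replicate 1, which overlapped the trunks.

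The genes that build ribosomes were higher. All 9 cytosolic ribosomal protein genes were called higher, at log2 fold changes of 1.23 to 1.70 and a median of 1.55 (0.75 under library totals). The small subunit gene rps7 (Nfu_g_1_000119) had 4655, 5120, 9213, 6710 and 7001 CPM in trunks, against 1674, 1758 and 2548 CPM in embryos (1.70 ± 0.15, adjusted p = 1.06e-06). The stages did not overlap for any of the 9. Of 22 ribosome biogenesis genes, which process ribosomal RNA and assemble the subunits, 17 were higher and 1 was lower, with a median of 1.21. Under library totals the median was 0.41, with 12 higher and 4 lower.

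The export adaptor gene nmd3 (Nfu_g_1_000578) had 218, 192, 294, 268 and 315 CPM in trunks, against 47.7, 49.6 and 76.5 CPM in embryos (2.19 ± 0.14, adjusted p = 7.78e-08). The nucleolar phosphoprotein gene nolc1 had the highest value of the list (3.62), and the assembly factor gene tsr1 had 2.29. The lower gene was rpp30 (-1.33), a subunit of RNase P, which processes transfer RNA.

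Genes of the mitochondrial ribosome were all called higher (8 of 8, median 0.74), but their median was -0.06 under library totals, with 1 higher. The 11 genes of mitochondrial energy metabolism (6 higher, 0 lower, median 0.47) had a median of -0.34 under library totals, with 2 higher and 6 lower. The direction of these lists thus depended on the scaling. The malate dehydrogenase gene MDH2 (Nfu_g_1_001755) of the citric acid cycle was higher under both, with 698, 754, 1004, 1018 and 1075 CPM in trunks, against 203, 226 and 296 CPM in embryos (1.91 ± 0.14, or 1.11 under library totals).

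Of 12 genes of glycolysis, 10 were higher and 1 was lower, with a median of 1.6. The list mixed isoforms. One pyruvate kinase copy, pkma (Nfu_g_1_001192), had 172, 214, 249, 358 and 323 CPM in trunks, against 11.8, 17.9 and 31.8 CPM in embryos (3.61 ± 0.20, adjusted p = 2.66e-08), and the other copy (Nfu_g_1_000034) had 148 to 374 CPM in trunks and 80.5 to 184 CPM in embryos (0.78 ± 0.24). Hexokinase, hk1, had a log2 fold change of 2.49 and pfkfb1, which sets the level of a glycolytic activator, 3.30. The enolase gene eno2, known in mammals as the neuronal enolase, was the lower member (-1.11 ± 0.21). The 16 splicing genes had 1 higher and 6 lower members and a median of -0.27, where 37.2% of all genes were higher and 36.1% lower.

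All 17 intestinal genes tested were higher, with a median of 4.96 at the bounds, and their summed level was 805 to 2309 CPM in trunks and 28.5 to 50.5 CPM in embryos. The brush border myosin gene MYO7B (1 of 2) (Nfu_g_1_000806) had 100, 147, 263, 289 and 379 CPM in trunks, against 0.344, 0.541 and 0.861 CPM in embryos (8.50 ± 0.33, adjusted p = 2.02e-09). Sucrase-isomaltase, SI (Nfu_g_1_000389), which splits sugars at the brush border, had 67.8, 91.5, 51.4, 189 and 181 CPM in trunks, against 0.686, 1.02 and 1.36 CPM in embryos (6.73 ± 0.39). Each trunk exceeded the embryos by far.

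Acidic chitinases digest the chitin of crustacean and insect food. The copy chia.3 (Nfu_g_1_001861) had 136, 99.7, 202, 507 and 343 CPM in trunks, against 0.191, 0.222 and 0.526 CPM in embryos (9.55 ± 0.33, adjusted p = 9.32e-10). A second chitinase, chia.6 (Nfu_g_1_001929), had at most 3 counts in any embryo and was at least 343-fold higher in trunks. The counts of the chitinase copies may be shared between near-identical genes. The intestinal cadherin gene cdh17 was higher in both copies (4.96 and 5.56).

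Of 15 liver genes, 14 were higher and 0 were lower, with a median of 4.49. The protease inhibitor gene serpina1 (Nfu_g_1_000093), a major plasma protein, had 642, 1494, 1014, 1092 and 1262 CPM in trunks, against 8.58, 9.70 and 68.7 CPM in embryos (5.87 ± 0.61, adjusted p = 3.41e-06). The liver fatty acid binding protein gene fabp10a (Nfu_g_1_010874) had 249, 677, 573, 418 and 533 CPM in trunks, against 5.04, 5.77 and 24.9 CPM in embryos (5.80 ± 0.44). The highest embryo was far below the lowest trunk in both. The fibrinogen genes fga and fgb of blood clotting had log2 fold changes of 5.65 and 4.49. The acute phase gene APCS was not called (0.40).

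The 2 copies of the apolipoprotein gene apoa4, which is made by the gut and by yolk-absorbing tissue in fish embryos, rose less than most gut and liver genes. They had log2 fold changes of 1.11 each (adjusted p = 0.0481 and 0.0337), and the stages overlapped. Under library totals both had 0.29 and neither was called.

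All 6 kidney tubule genes were higher, with a median of 3.93 at the bounds. In males alone 4 were called, but kcnj1 was not tested there. The fit of both sexes called 6 higher in males. The cation exporter gene slc47a2 (Nfu_g_1_000329) had 8.87, 8.0, 42.8, 31.6 and 29.7 CPM in trunks, against 0.0430, 0.172 and 0.229 CPM in embryos (6.84 ± 0.35, adjusted p = 1.63e-08). The potassium channel gene kcnj1 had at most 1 count in any embryo and was at least 34.1-fold higher, although 1 male trunk had only 0.151 CPM.

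Of 12 enzymes that conjugate drugs, steroids and bile pigments, 10 were higher and 0 were lower, with a median of 3.16. The glucuronosyltransferase gene ugt5a4 (Nfu_g_1_001357) had 81.2, 70.2, 50.8, 188 and 204 CPM in trunks, against 0.0430, 0.0965 and 0.343 CPM in embryos (9.57 ± 0.48, adjusted p = 1.37e-08). The sulfotransferase gene sult1st3 had 26.2 to 64.1 CPM in trunks and 0.863 to 3.28 CPM in embryos (4.70 ± 0.31). In both genes the male trunks 2 and 3 were the highest libraries, as they were for SI and chia.3.

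All 5 smooth muscle genes were called higher, with a median of 2.30 (3.44 in females alone, 1.98 in males alone). Smooth muscle actin, acta2 (Nfu_g_1_000987), had 390, 328, 181, 327 and 370 CPM in trunks, against 1.03, 2.19 and 17.5 CPM in embryos (6.27 ± 0.70, adjusted p = 6.39e-06). The calponin gene cnn1b, which regulates smooth muscle contraction, had a log2 fold change of 4.21. Of 23 striated muscle genes, 16 were higher and 2 were lower, with a median of 1.78. The median was 2.57 in females alone (18 higher) and 0.83 in males alone (8 higher). The fit of both sexes called 17 higher in females and 9 in males. Without the male 10 dpf embryo replicate 1 the list had 18 higher and 3 lower members and a median of 2.11. The summed levels overlapped, at 648 to 1366 CPM in trunks and 170 to 701 CPM in embryos. The alpha-actinin gene actn2 (Nfu_g_1_002934) of the sarcomere Z-disc had 26.7, 74.0, 47.0, 21.1 and 60.8 CPM in trunks, against 5.61, 7.61 and 19.3 CPM in embryos (2.31 ± 0.38, adjusted p = 0.000161).

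Cardiac troponin C, tnnc1a (Nfu_g_1_001375), had 11.9, 116, 82.8, 9.39 and 69.5 CPM in trunks, against 2.59, 3.28 and 10.7 CPM in embryos (3.74 ± 0.66, adjusted p = 0.000269). The male trunk 2 at 9.39 CPM lay below the highest embryo, so the stages overlapped. How much heart each trunk sample held is not given in the sources used here. The lower members were HRC (-1.37), a calcium-binding protein of the sarcoplasmic reticulum, and the slow troponin gene tnnt1 (-0.95).

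Red blood cell genes did not move together. Of 9, 5 were higher and 1 was lower, with a median of 1.43 (3.29 in females alone, 1.36 in males alone). The Rhesus family gene rh50 (Nfu_g_1_001518), an ammonia channel of the red cell membrane, had 21.1, 29.0, 11.9, 58.5 and 52.0 CPM in trunks, against 0.0392, 0.201 and 0.405 CPM in embryos (7.21 ± 0.50, adjusted p = 1.34e-07). The transferrin receptor gene tfr1a, which takes up iron, had 3.62. The embryonic haemoglobin gene hbbe2 (Nfu_g_1_023228) had 184, 1854, 142, 40.3 and 98 CPM in trunks, against 231, 303 and 1781 CPM in embryos (-0.71 ± 1.21, adjusted p = 0.609). The female trunk 2 and 1 embryo stood high in this gene, and its log2 fold change was 1.95 in a fit of females alone and -3.15 in a fit of males alone.

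Of 23 immune cell genes, 14 were higher and 2 were lower, with a median of 1.11. The interleukin 6 receptor gene il6r (Nfu_g_1_001139) had 10.6, 15.7, 17.9, 12.3 and 17.7 CPM in trunks, against 1.33, 1.57 and 2.52 CPM in embryos (3.12 ± 0.21, adjusted p = 1.11e-07). The ubiquitin ligase gene rnf213a had a log2 fold change of 4.19 and lect2l, a secreted chemoattractant, 4.18. The B cell receptor gene cd79a (Nfu_g_1_001295) had 2.05, 0.580, 2.71, 1.35 and 1.86 CPM in trunks and at most 3 counts in any embryo, at least 13.0-fold higher. Levels of the B cell gene were thus low but present in every trunk. The lower members were CD27 (-1.47) and tlr7 (-1.06).

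The connective tissue lists differed from each other. Of 24 genes of fibrous connective tissue, 15 were higher and 1 was lower, with a median of 1.37. It was 2.05 in females alone with 20 higher, and 0.83 in males alone with 8 higher. The fit of both sexes called 18 higher in females and 11 in males. Without the male 10 dpf embryo replicate 1 this list had 18 higher and 1 lower members and a median of 1.86. The collagen VI gene col6a2 (Nfu_g_1_017821) had 103, 130, 191, 126 and 236 CPM in trunks, against 3.32, 4.86 and 9.43 CPM in embryos (4.75 ± 0.22, adjusted p = 7.24e-09). Dermatopontin, dpt, which binds collagen fibrils in the dermis, had at most 3 counts in any embryo and was at least 48.7-fold higher. The 18 cartilage and bone genes had 3 higher and 5 lower members and a median of -0.03. Females alone gave 9 higher and 1 lower (0.25), and males alone 1 higher and 6 lower (-0.27). The fit of both sexes gave 6 higher and 1 lower in females, and 1 and 6 in males.

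One cartilage collagen gene was lower in the fit of all libraries, with wide spread between embryos. The collagen II gene col2a1a (Nfu_g_1_001498) had 111, 91.2, 25.2, 62.1 and 43.1 CPM in trunks, against 83.0, 391 and 1571 CPM in embryos (-2.92 ± 0.77, adjusted p = 0.00458). The highest embryo was the male replicate 1, and the lowest embryo overlapped the trunks. For col2a1a the log2 fold change was -1.65 in females alone (edgeR, adjusted p = 0.0535, not called). It was -4.07 in males alone (adjusted p = 0.00563). Without the male embryos 1 and 3 the list had 6 higher and 4 lower members.

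Of 17 epidermal genes, 14 were higher and 0 were lower, with a median of 3.05. The median was 4.07 in females alone (15 higher), 1.89 in males alone (7 higher) and 3.86 without the male 10 dpf embryo replicate 1. The fit of both sexes called 15 higher in females and 12 in males. The summed levels overlapped, at 3126 to 10109 CPM in trunks and 621 to 3207 CPM in embryos. The keratin gene krt18 (Nfu_g_1_001656) had 883, 823, 716, 1938 and 1606 CPM in trunks, against 2.37, 2.96 and 5.47 CPM in embryos (8.38 ± 0.32, adjusted p = 1.89e-09). A second copy, krt18 (Nfu_g_1_001524), had 248 to 394 CPM in trunks and 174 to 346 CPM in embryos and was not called (0.27). The basal keratin gene krt5 likewise had copies of unlike behaviour. The abundant one (Nfu_g_1_001437) had 6316, 8309, 1719, 5218 and 7055 CPM in trunks, against 381, 643 and 2582 CPM in embryos (2.72 ± 0.54). The other (Nfu_g_1_000844) had 499, 4.97, 0.0754, 0 and 1.21 CPM in trunks, against 0.0382, 0.104 and 0.229 CPM in embryos, and was called (adjusted p = 0.00190). Without the female trunk 1 its log2 fold change was 3.52 (edgeR, adjusted p = 0.00876) instead of 9.21.

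Smaller lists gave mixed results. Of 15 hormone and receptor genes, 2 were higher and 6 lower, with a median of -0.38. The shares over all genes were 37.2% higher and 36.1% lower. The sign of the list median turned in males alone (0.33, with 2 higher and 3 lower) and without the female 0 dph trunk replicate 2 (0.09). The thyrotropin-releasing hormone gene trh (Nfu_g_1_001482), a hypothalamic peptide, had 0.682, 0.258, 0.603, 0.0796 and 0.323 CPM in trunks, against 3.32, 5.16 and 6.51 CPM in embryos (-3.65 ± 0.39, adjusted p = 4.26e-06). One copy of cyp11c1, a steroid hydroxylase, was higher (3.26). Of 5 clock genes, 1 was higher and 3 were lower. The gene hlfb (Nfu_g_1_000888), a PAR domain factor of clock output in mammals, had 68.3, 82.1, 100, 111 and 84.4 CPM in trunks, against 4.46, 5.13 and 9.69 CPM in embryos (3.88 ± 0.24, adjusted p = 6.05e-08), whereas both copies of roraa were lower (-3.45 and -1.55).

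Of 11 genes of motile cilia, 1 was higher and 6 were lower, with a median of -0.67, beside 36.1% of all genes called lower. The gene pih1d2, a dynein assembly factor, had -2.65. Only 2 of 18 olfactory receptor identifiers could be tested, and the receptor gene or129-1 (Nfu_g_1_000264) had 7.03, 8.38, 22.8, 8.28 and 13.0 CPM in trunks, against 0, 0.0411 and 0.162 CPM in embryos (7.28 ± 0.44). Every trunk lay above every embryo for this receptor gene. Of 3 inner ear genes, 2 were higher and 1 was lower, and neither of the 2 was called higher under library totals.

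Immediate early genes, which switch on within minutes of a stimulus and code for transcription factors and feedback regulators, were among the most changed lists. Of 10, 8 were higher and 1 was lower, with a median of 4.24 (3.43 under library totals). Summed levels were 1477 to 2450 CPM in trunks and 187 to 238 CPM in embryos. The AP-1 subunit gene fosb (Nfu_g_1_000355) had 334, 413, 388, 237 and 494 CPM in trunks, against 1.16, 2.07 and 3.04 CPM in embryos (7.43 ± 0.30, adjusted p = 2.94e-09). The transcription factor gene cebpb (Nfu_g_1_001454) had 148, 177, 198, 267 and 176 CPM in trunks, against 1.16, 1.81 and 5.83 CPM in embryos (6.39 ± 0.34, adjusted p = 2.25e-08). Every trunk library was high, in both sexes. The stress gene gadd45ab had a log2 fold change of 4.44, the RNA decay factor gene ZFP36 had 4.71 and the nuclear receptor gene nr4a1 had 4.32. The small GTPase gene gem was lower (-1.11), and ctgfa, with 1.62 to 5.01 CPM in trunks and 0.114 to 4.25 CPM in embryos, was not called.

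**Figure D5:**
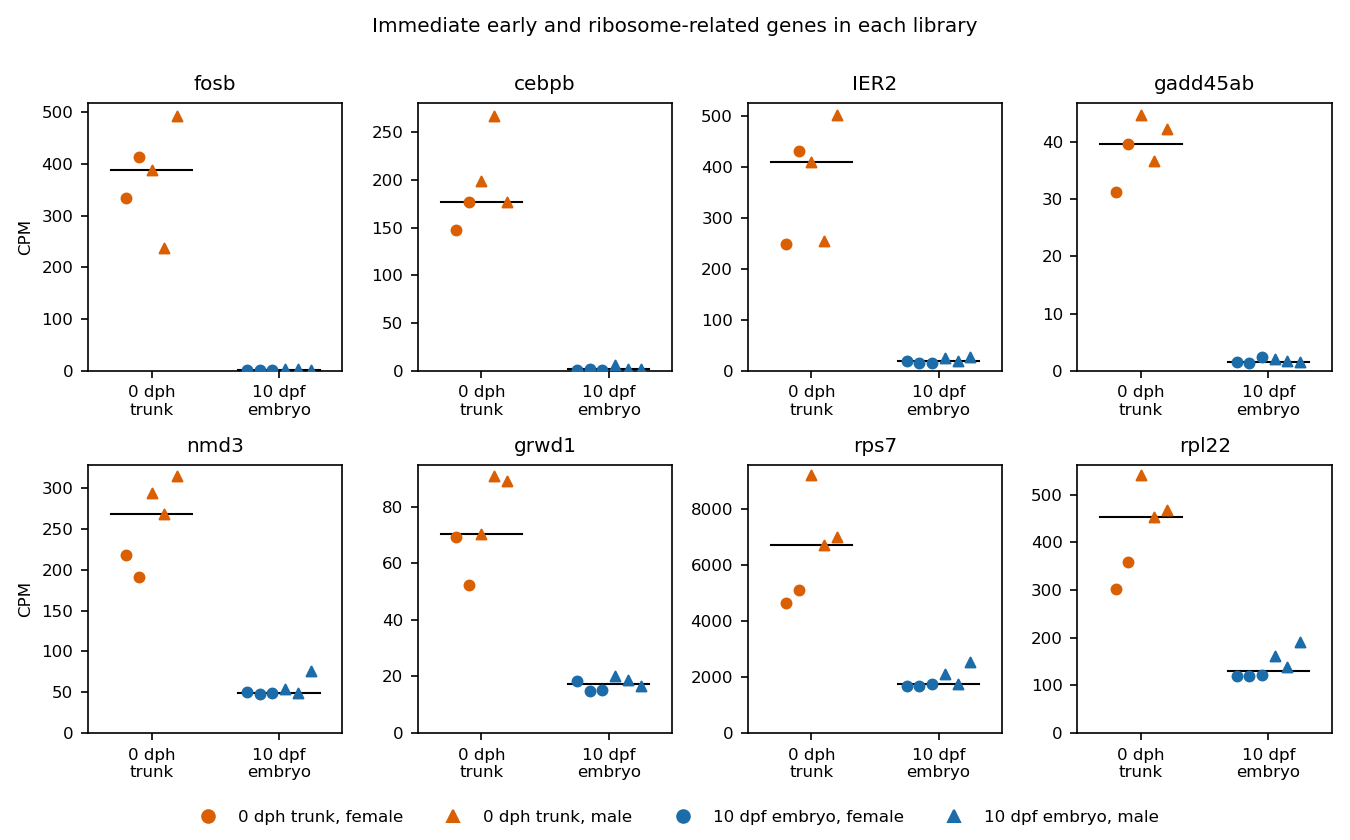
Levels (CPM) of 4 immediate early genes (top) and 4 genes of ribosome biogenesis and structure (bottom) in each library, with 0 dph trunks on the left and 10 dpf embryos on the right, circles for females, triangles for males and a line at the median. The gene fosb lay at 237 to 494 CPM in trunks and 1.16 to 3.04 CPM in embryos, and nmd3 at 192 to 315 CPM in trunks and 47.7 to 76.5 CPM in embryos.

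The 3 dph trunks give a later age in the same tissue. In a fit of 3 dph over 0 dph trunks, 11223 of 21094 genes were called (53.2%), with 5436 higher, 5787 lower and a median of -0.03. Both comparisons use the same 0 dph libraries, so a value that is high at 0 dph by chance is high in one and low in the other, and the values are given side by side only. The cell cycle list, at -1.19 for 0 dph over 10 dpf, had 19 of 25 genes higher and 1 lower for 3 dph over 0 dph, with a median of 1.45. BUB1 had -2.86 for 0 dph over 10 dpf and 2.52 for 3 dph over 0 dph. The immediate early list, at 4.24, had 0 higher and 9 lower of 10 (median -2.02), with fosb at -6.02.

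Liver genes had 12 of 17 higher at 3 dph (median 1.16), after 4.49 for 0 dph over 10 dpf, and immune genes had 16 of 27 higher and 0 lower (median 1.04). Ribosome biogenesis genes had 2 higher and 14 lower of 22 (median -0.51), and intestinal genes 4 higher and 8 lower of 17 (median -0.66). Neuronal genes had 0 higher and 16 lower of 39 (median -0.69).

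Among genes with a symbol and at least 10 CPM on average, the 6 largest rises were those of ugt5a4, the chia.3 copies Nfu_g_1_001861 and Nfu_g_1_001889, FOLR4, DIABLO (1 of 2) and krt5 (Nfu_g_1_000844). The place of this krt5 copy rests on the female trunk 1, its stages overlapped, and DESeq2 gave it 6.38. The gene FOLR4 (Nfu_g_1_000709), named after a folate receptor family member, had 85.6, 88.4, 210, 328 and 251 CPM in trunks, against 0.153, 0.232 and 0.324 CPM in embryos (9.42 ± 0.25, adjusted p = 1.15e-10). DIABLO (1 of 2) (Nfu_g_1_000698), named after a mitochondrial regulator of apoptosis, had 494, 976, 1036, 622 and 990 CPM in trunks, against 0.802, 1.34 and 1.77 CPM in embryos (9.26 ± 0.30). By fitted value the 6 falls at the other end were those of impg1a, rho, crybb1l3, mipb, pmelb and rgs9a. The genes impg1a, rho, mipb and rgs9a were at the counting floor in the trunks, where only lower bounds hold (at least 109.9-, 171-, 122- and 98.6-fold lower), so their order among the 6 is not known. The stages overlapped for rho.

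Many of the most changed identifiers carry no symbol. Nfu_g_1_019706, one of the 5 most abundant genes of the trunks, had 16807, 17944, 31898, 17155 and 27281 CPM there, against 14.6, 16.3 and 23.7 CPM in embryos (10.31 ± 0.30, adjusted p = 3.10e-10). Nfu_g_1_023323 had 457, 362, 359, 648 and 685 CPM in trunks, against 0.458, 0.646 and 0.689 CPM in embryos (9.59 ± 0.26). Among the falls, Nfu_g_1_008082 had 1.71, 1.81, 1.73, 2.07 and 2.26 CPM in trunks, against 644, 754 and 916 CPM in embryos (-8.63 ± 0.19, adjusted p = 7.18e-11). Nfu_g_1_014067 had 0.808 to 1.27 CPM in trunks and 411 to 518 CPM in embryos (-9.00 ± 0.20). The stages did not overlap in any of the 4.

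Detection in a single stage was less frequent. With at most 3 counts in every library of one stage and at least 30 counts in every library of the other, 27 genes were detected only in 0 dph trunks and 71 only in 10 dpf embryos. These limits are raw counts. TMM factors were 0.669 to 0.843 in trunks and 1.12 to 1.36 in embryos, so the same count is a higher CPM in a trunk. Detection only in embryos was therefore easier to reach, and 27 and 71 cannot be compared directly. Symbols were known for 2 of the 27, dpt and chia.6, and for 12 of the 71, among them impg1a, cryba1a, mipb and arr3a, the cone arrestin gene. Among genes called in the plain test, the fitted change was at least 8-fold for 1826 higher and 858 lower genes. It was at least 32-fold for 565 higher and 245 lower genes. Changes of these sizes were not tested, and genes at the counting floor entered at their fitted value.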

How the data were processed

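Bulk RNA-seq of both sexes of *N. furzeri*, strain GRZ, was used. QIAzol extraction of total RNA, TruSeq libraries and an Illumina HiSeq are named in the labels. The authors converted base calls with bcl2fastq (version 1.8.4), cleaned the reads with sga, aligned them to the reference genome by STAR and counted them per gene with summarizeOverlaps. The counting mode and use of strand are not given in the sources used here. The deposited values are raw counts of 26740 genes, with 0 rows that name no gene and 0 unmapped columns. Without molecular identifiers PCR copies are counted too, so floors cover counting error only.

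Symbols came from annotation columns of the supplementary tables of the study, whose own comparisons were not used. Of the identifiers, 0 were found in RefSeq annotation of NfurGRZ-RIMD1.

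The 11 libraries were fitted with edgeR (version 4.0.16, R version 4.3.3; quasi-likelihood, TMM factors, filterByExpr, terms for sex and stage, 8 residual degrees of freedom). P-values were adjusted by Benjamini-Hochberg over all genes tested. Standard errors are the log2 fold change divided by the square root of F and are approximate. Changes beyond 2-fold were tested with glmTreat. The interaction and within-sex values came from a fit with 1 term per sex and stage. Library measures were compared by exact permutation in SciPy (version 1.17.1). Stages with at most 3 counts in every library were taken as at the floor. Folds against them compare the mean level of the other stage with 3 counts per library. They are lower bounds for that mean, not for each library. Scripts were tested on simulated counts in which few genes changed, in equal numbers up and down. That test does not bear on the choice of scaling.

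Members and lists were chosen with earlier results of these data known. Named genes were the up to 2 called higher and 2 called lower members of each list with the smallest p, the 6 largest rises and falls among genes with a symbol and at least 10 CPM, the 5 most abundant genes of each stage and the 2 genes per direction with the smallest p. Some of the genes picked by this rule are not given above. Other members given with full values, among them gria2b, gad1b, suv39h1b and acta2, were not picked by this rule. Identifiers without a symbol were limited to 4, so the other most abundant genes are not named.

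Alternatives were library totals, RLE and upper quartile factors, DESeq2 (version 1.42.0), other filters, single sexes, no sex term, a fit over 17 libraries, a block for the replicate number, and each library left out in turn. Leaving out the male embryos 1 and 3 together was chosen after seeing the data.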

Additional observations from a re-analysis of the deposited data

Results flagged for a closer look

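Groups of library values were summed lists, named genes and library measures per stage. Of 295 such groups, 47 held a library far from the others of its stage by Dixon's criterion. For normally distributed values chance gives about 5%, or about 1 in 20. The values were not log-transformed, so the chance rate here is not known. The male 10 dpf embryo replicate 1 accounted for 20 of the 47 and the male embryo replicate 3 for 16. The groups share libraries and genes, so the flags are not independent. No cause was tested.

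In the male 10 dpf embryo replicate 1 the summed levels lay above the other 5 embryos for liver (289.5 CPM), epidermis (3207 CPM), striated muscle (701 CPM), red blood cells (2126 CPM), cartilage and bone (2433 CPM), fibrous connective tissue (726 CPM), kidney tubule (27.1 CPM) and inner ear (78.1 CPM), and below them for forebrain factors (63.9 CPM). Single genes were high for the otolith matrix gene stm (50.2 CPM), hmga1b (342 CPM), the plasmin inhibitor gene serpinf2b (14.6 CPM), cilp (64.3 CPM), the collagen chaperone gene hsp47 (123 CPM), col2a1a (1571 CPM), tmprss4a (3.73 CPM), sult1st3 (3.28 CPM), cyp11c1 (1.66 CPM) and tdrd6 (1.34 CPM), and irx2a was low (22.8 CPM).

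In the male 10 dpf embryo replicate 3 the summed levels were high for Hoxb genes (122 CPM), cell cycle (1691 CPM) and motile cilia (173 CPM). In this library 10941 genes reached 10 CPM by library totals, fewer than in the other embryos. The genes USH1G (1 of 2) (24.6 CPM), hoxb5b (86.1 CPM), hoxb6a (20.2 CPM), robo1 (229.7 CPM), smc4 (435 CPM), nmd3 (76.5 CPM), rpp30 (34.7 CPM), il6r (2.52 CPM) and the splicing genes crnkl1 (109 CPM) and snrpa (128 CPM) were high, and sox4b (51.8 CPM) and tyr (16.7 CPM) were low. In the female 10 dpf embryo replicate 2, rho (123 CPM) and Nfu_g_1_019706 (23.7 CPM) were high.

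Among the 0 dph trunks, the female replicate 1 was high for krt5 (Nfu_g_1_000844, 499 CPM), tdrd6 (53.7 CPM) and fzd3a (0.750 CPM) and low for the respiratory complex I gene NDUFC2 (91.6 CPM). The female replicate 2 was high for red blood cell genes (2408 CPM). The male replicate 1 was high for USH1G (1 of 2) (6.71 CPM) and ANK1 (2 of 2) (13.0 CPM), and the male replicate 2 for kidney tubule genes (160 CPM) and Nfu_g_1_014067 (1.27 CPM).

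The change with stage differed between the sexes by the interaction test for BUB1 (2.58), CENPE (2.96), ect2 (2.26) and rec8 (4.48), each as the log2 fold change in females minus that in males.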

How the results depend on the processing

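Library totals gave 4650 higher and 12005 lower genes, and 2657 and 7667 beyond 2-fold, and reversed the direction of crnkl1 (-0.21) and hsp47 (-0.065) among the 110 named genes, since small rises lie within the shift of -0.80. RLE factors, upper quartile factors, DESeq2, the 17-library fit and single sexes kept the counts of higher and lower genes within 1.5 times. Leaving out 1 library gave 7231 to 7885 higher and 7364 to 8192 lower genes, and 4176 to 4946 and 3673 to 4382 beyond 2-fold. The count of sex-by-stage differences, 89, was 415 with DESeq2, 11 without the male embryos 1 and 3, and 0 to 240 without 1 library. The cause of this spread was not tested. Detection in one stage gave 69 trunk and 146 embryo genes with limits of 3 and 10 counts, and 2 and 3 genes with limits of 0 and 30. These limits are raw counts too, which makes detection only in embryos easier. The count of genes at 1 CPM or more by library totals differed by -747 (exact permutation p = 0.0693, adjusted over 5 measures), with no difference called. Same-numbered libraries of the 2 stages did not deviate together (correlations of -0.227 to 0.0168), so the numbers were not taken as pairs across stages, although same-numbered female and male embryos of 10 dpf did (0.408, 0.175 and 0.505). With the replicate number as a block, 8017 genes were higher and 7566 lower, and the interaction was called for 92 genes. Depth limits statements on genes with few counts in both stages, of which 5350 were not tested.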
